A study of Homo sapiens with 60 samples.

Results

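The RAS, RAF and ERK pathway core consists here of 7 genes that were taken by name from the 19712 genes of the deposited tables: the RAS GTPases NRAS and HRAS, the RAF kinases ARAF and BRAF, the GTPase-activating proteins NF1 and RASA1, and the kinase MAPK3, also known as ERK1. All 7 genes are present in both tables and passed the filter on low counts in every comparison, so no member was lost. Their mRNA was followed by RNA-seq in 4 established cell lines of EGFR-mutant non-small cell lung cancer (PC9, HCC827, H1975 and HCC2935), each in 5 arms with 3 biological replicates, which gives 20 groups and 60 libraries. The drug throughout was osimertinib, an inhibitor of mutant EGFR. Parental cells were kept without drug for 21 days and then received the solvent DMSO or 500 nM osimertinib (acute osimertinib) for 24 h. Cells under 500 nM osimertinib for 21 days were collected as drug-tolerant persisters (DTPs). Other cultures of DTPs were washed and kept without drug for 24 h (short washout), or until growth had resumed (long washout), which took 3 days in H1975, 4 days in HCC827, 7 days in PC9 and 10 days in HCC2935, so that line and washout time cannot be told apart. Each comparison speaks for 1 cell line in culture.

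EGFR passes its signal to RAS, a switch protein of the inner cell membrane that is on when it holds GTP. Active RAS recruits the RAF kinases, RAF phosphorylates the MEK kinases, and MEK phosphorylates ERK, which enters the nucleus and drives genes of growth and of negative feedback. NF1 (neurofibromin) and RASA1 (p120 RasGAP) speed up the hydrolysis of GTP on RAS and so turn it off. Loss of NF1 and mutations of NRAS or BRAF are known routes by which lung cancers escape EGFR inhibitors. Activity in this pathway is set mainly by GTP loading and phosphorylation, which mRNA levels do not measure.

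The deposited values are estimated counts, which sum to between 17.7 and 49.1 M counts per library, with HCC827 and HCC2935 (17.7 to 25.6 M) at a lower depth than PC9 and H1975 (34.7 to 49.1 M). Squared differences between replicates of a group were on average 8.97 to 139 times those of counting error (median 25.6 over 60 pairs). They were taken over all genes with at least 40 counts in the pair and not for the members alone. Levels within a gene are given as counts-per-million (CPM) after TMM scaling over all 60 libraries, and levels between genes as TPM, which also corrects for transcript length. Of the epithelial markers, KRT8, KRT18 and KRT19 were at 394 TPM or more in every library, EPCAM at 18.1 to 795 TPM and CDH1 at 1.28 to 674 TPM. Among leukocyte markers, CD3E was under 1 TPM in 60 of 60 libraries and PTPRC (CD45) in 48, but CD68, a lysosomal gene high in macrophages, was at 9.50 to 175 TPM. Among fibroblast markers, DCN was under 1 TPM in 59 libraries, COL3A1 in 43, PDGFRB in 42 and LUM in 39, and COL1A1 was at 4.73 to 167 TPM in all. The endothelial genes VWF, PECAM1 and CDH5 were under 1 TPM in 58, 43 and 18. The ERK-driven feedback and transcription factor genes DUSP6, SPRY4, ETV4 and ETV5 served as a check of the treatment labels: all 4 fell under acute osimertinib in the 4 lines together, with log2 fold changes between -4.65 and -3.71, and all 4 were still lower in DTPs, between -3.23 and -2.06. In DTPs of HCC827 the fall was smaller, and DUSP6 (9.90 to 26.2 CPM) overlapped with DMSO (17.4 to 21.4 CPM). The summed level of the 4 genes there was 27.2 TPM, against 52.5 TPM under DMSO. In PC9 it was 17.8 against 157 TPM, in H1975 8.64 against 55.6 TPM and in HCC2935 22.8 against 215 TPM. The proliferation genes MKI67, TOP2A and CDK1 fell as well. Under acute osimertinib they fell by 1.95 to 2.33 on the log2 scale, and in DTPs by 1.67 to 1.76. Their part in the results below was not tested. Counts come from whole cultures, in which fewer cells of a type and less RNA per cell cannot be told apart.

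In GENCODE release 29 (GRCh38), NRAS lies at chr1:114704469-114716894, HRAS at chr11:532242-537287, BRAF at chr7:140719327-140924928 and MAPK3 at chr16:30114105-30123506, all on the minus strand. ARAF at chrX:47561100-47571920, NF1 at chr17:31094927-31382116 and RASA1 at chr5:87267888-87391931 lie on the plus strand. Counts refer to whole genes, and no source says whether reads were assigned by strand. NRAS, HRAS and MAPK3 overlap no other annotated gene, whereas RASA1 overlaps CCNH, ARAF overlaps SYN1 and BRAF overlaps NDUFB2, each on the opposite strand. EVI2A, EVI2B and OMG lie within NF1. NF1 also has 12 named pseudogenes, ARAF 3 and BRAF 1, so that reads of these genes may have been split with their copies and their levels are less certain.

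Under DMSO, group means of the 7 genes ran from 9.17 to 104 TPM, and their order differed between the lines. BRAF was the lowest member, at 9.45 ± 0.209 TPM in PC9, 9.17 ± 0.565 in HCC827, 12.8 ± 0.715 in H1975 and 15.4 ± 2.44 in HCC2935 (mean ± SD, n = 3 here and below). The highest member was HRAS in PC9 (52.2 ± 3.47 TPM), RASA1 in HCC827 (58.7 ± 2.25 TPM), ARAF in H1975 (69.4 ± 7.84 TPM) and MAPK3 in HCC2935 (104 ± 13.6 TPM). Libraries of the highest member overlapped with those of another member in each line: with HRAS in H1975 and HCC2935, with MAPK3 in PC9 and with NRAS in HCC827. In PC9 the next members below HRAS were MAPK3 (46.0 ± 2.94 TPM) and NRAS (42.6 ± 3.46 TPM), whose libraries overlapped with each other, and in HCC827 the NRAS libraries (54.3 ± 11.04 TPM) spanned those of RASA1. Across all 60 libraries BRAF ranked last among the 7 genes in 57, and MAPK3 ranked highest in 23, HRAS in 19, ARAF in 11, NRAS in 5 and RASA1 in 2. All 7 are moderately to highly expressed: their median percentile among the genes of a library ran from 59.7 for BRAF to 87.6 for MAPK3.

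**Figure D1:**
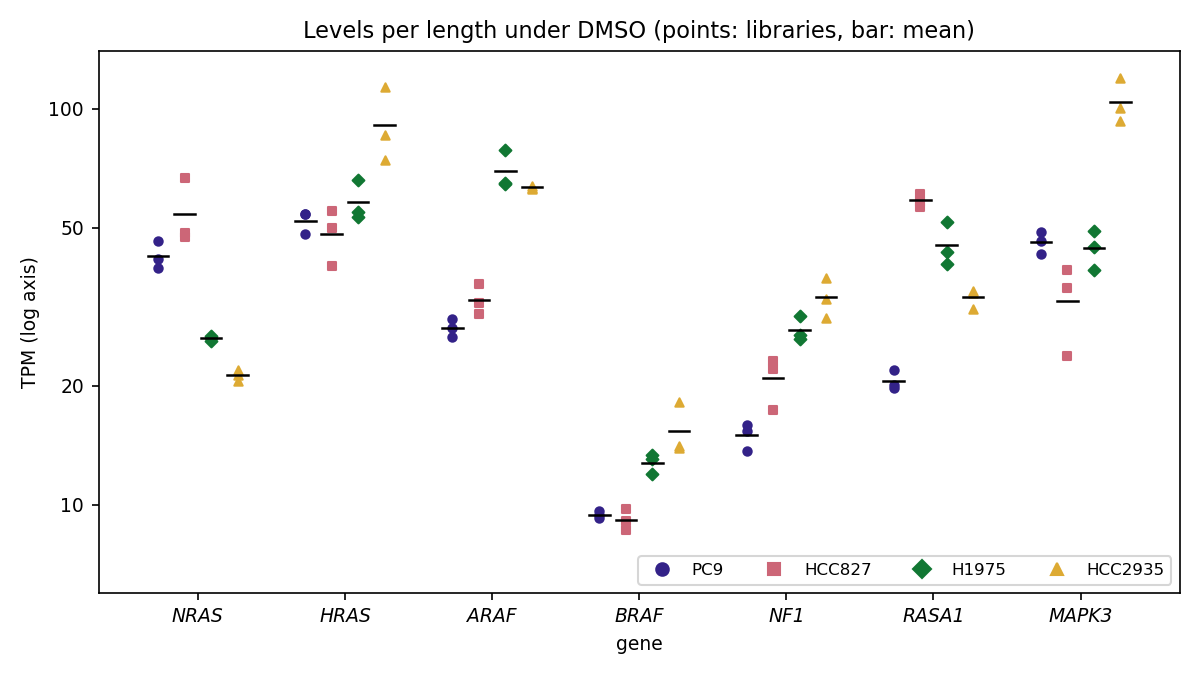
TPM of the 7 genes under DMSO on a log axis, with 3 libraries per cell line as points and their mean as a bar. BRAF is lowest in every line, while NRAS is high in PC9 and HCC827 and MAPK3 is high in HCC2935, at 104 ± 13.6 TPM.

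The untreated lines differed in every member. All 7 were called by the test over the 4 lines under DMSO, where 91.2% of all 15214 genes tested were called, so that such a difference was the rule. NRAS separated the lines most clearly into a high and a low pair: its DMSO libraries held 156, 165 and 183 CPM in PC9 and 166, 237 and 175 CPM in HCC827, against 85.8, 86.9 and 88.6 CPM in H1975 and 64.2, 65.8 and 58.6 CPM in HCC2935. PC9 and HCC827 did not differ beyond their spread in NRAS (log2 difference 0.20, standard error 0.12, edgeR adjusted p = 0.15), and the other 5 pairs of lines did. RASA1 differed in all 6 pairs and fell in the order HCC827, H1975, HCC2935 and PC9, with 1.36 on the log2 scale between HCC827 and PC9 (standard error 0.10, edgeR adjusted p = 7.0e-08).

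ARAF was higher in H1975 and HCC2935 than in the other lines, by 1.04 on the log2 scale between H1975 and PC9 (standard error 0.09, edgeR adjusted p = 4.1e-07), and PC9 and HCC827 did not differ beyond their spread (0.09, edgeR adjusted p = 0.43). MAPK3 was higher in HCC2935 than in each other line, by 0.77 to 1.401 on the log2 scale, and PC9, H1975 and HCC827 followed in that order of means, of which only PC9 and HCC827 differed. The order of NF1 was HCC2935, H1975, HCC827 and PC9, with 4 of 6 pairs called, and that of BRAF was HCC2935, H1975, PC9 and HCC827, with 3 of 6. HRAS was highest in HCC2935 and differed in 2 of 6 pairs, against HCC827 and H1975. Its difference over the 4 lines (edgeR adjusted p = 0.0148) was lost without DMSO replicate 2 of HCC2935 (edgeR adjusted p = 0.107), the library with the most HRAS among the DMSO libraries (35.7 CPM).

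The comparison of acute osimertinib with DMSO asks how a day of EGFR inhibition changed these mRNAs. MAPK3 was higher and RASA1 lower in all 4 lines, and these were the members whose libraries separated from DMSO in every line. Overlap of libraries was read for the members only, here and below, so no share of all genes stands beside it. In PC9, 5 of the 7 members were called (HRAS, NRAS, NF1, RASA1 and MAPK3), beside 68.5% of all genes tested. In HCC827, 4 were called (HRAS, BRAF, RASA1 and MAPK3), beside 42.3%. In H1975, only RASA1 and MAPK3 were called, 2 of 7 beside 44.9%, and in HCC2935 NF1, RASA1 and MAPK3, 3 of 7 beside 47.1%. Fitted over the 4 lines together with the line as a covariate, 5 members were called, with MAPK3 and ARAF higher and RASA1, HRAS and NRAS lower, beside 61.8% of all genes. With 7 genes, these counts lie on both sides of the background. The effect of acute osimertinib differed between the lines for HRAS, RASA1 and MAPK3, 3 of 7 beside 40.5% of all genes.

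DTPs were compared with DMSO to see what remained under prolonged drug. In PC9, 3 members were called (RASA1 and HRAS lower, MAPK3 higher), beside 71.3% of all genes. In HCC827 RASA1 alone was called, 1 of 7 beside 36.7%, and the same held for RASA1 in H1975, 1 of 7 beside 45.7%. In HCC2935 NRAS alone was called, 1 of 7 beside 52.5%. In the 4 lines together, RASA1, HRAS and NRAS were lower, 3 of 7 beside 55% of all genes, and the effect differed between the lines for RASA1 and MAPK3, 2 of 7 beside 61.6%.

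DTPs were also set against acute osimertinib, which compares long with short exposure to the same dose. MAPK3 was lower in DTPs in all 4 lines. It was the 1 member called in PC9, beside 39.8% of all genes. On log2 TPM, where the median of all genes lay at 0.28 in place of 0.01, limma called 6 members in PC9. NF1 in PC9 was called by edgeR without DTP replicate 2 (0.36, adjusted p = 0.0194). RASA1, BRAF and MAPK3 were called in HCC827 (3 of 7 beside 29.5%), and RASA1 and MAPK3 in both H1975 (2 of 7 beside 26.2%) and HCC2935 (2 of 7 beside 42.4%). These comparisons share their acute and their DTP libraries with those against DMSO, so the 3 sets of values are not independent of each other.

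**Figure D2:**
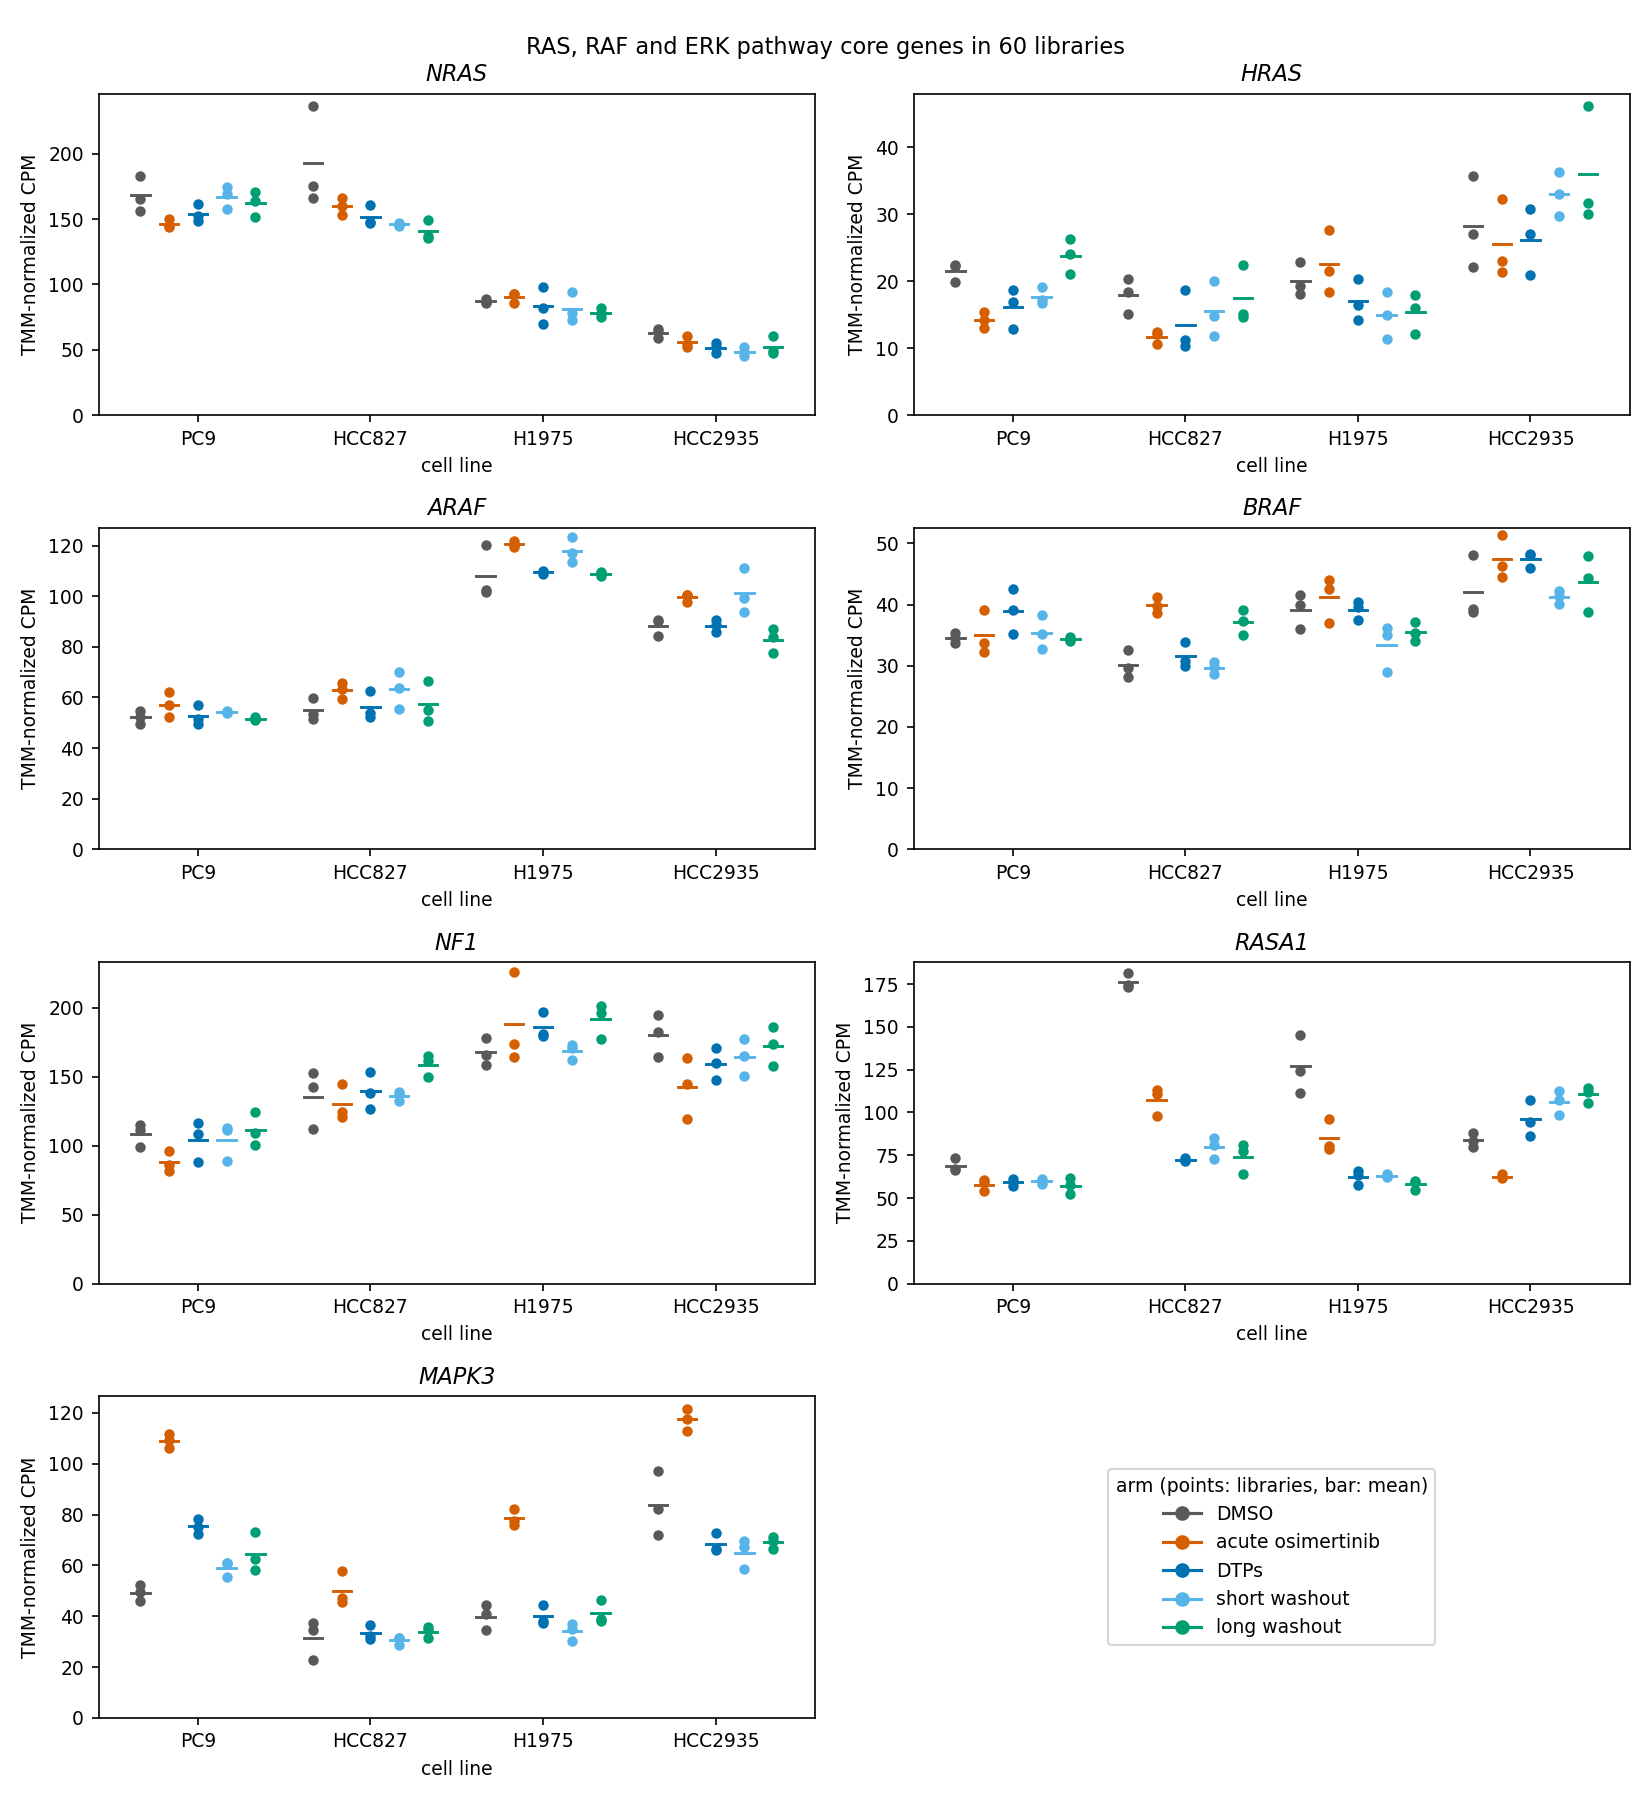
TMM-normalized CPM of the 7 genes in all 60 libraries, in 1 panel per gene with a linear axis from 0, with the 5 arms of each cell line side by side (points are libraries, bars are means of 3). The acute libraries of MAPK3 lie above the DMSO libraries in each line, and the RASA1 libraries of HCC827 and H1975 stay low from DTPs to long washout.

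MAPK3, a terminal kinase of the cascade, was the member with the largest rise. In PC9 its DMSO libraries held 45.8, 52.3 and 49.6 CPM, and its acute libraries 109, 112 and 106 CPM. In HCC827 the values were 37.4, 22.7 and 34.6 CPM in the DMSO arm, against 45.5, 57.6 and 47.3 CPM with the drug. No acute library of either line came down to the level of a DMSO library. In H1975 MAPK3 went from 44.2, 34.4 and 41.0 CPM to 76.1, 77.4 and 82.3 CPM, and in HCC2935 from 82.1, 97.3 and 71.8 CPM to 118, 113 and 122 CPM. The acute libraries were above all DMSO libraries in these lines too. The ratio of the mean levels was 2.22 in PC9, 1.59 in HCC827, 1.97 in H1975 and 1.402 in HCC2935. The log2 fold changes were 1.11 (standard error 0.07, edgeR adjusted p = 2.57e-06) in PC9, 0.63 (0.19, 0.0228) in HCC827, 0.91 (0.11, 0.000694) in H1975 and 0.46 (0.11, 0.00707) in HCC2935. In the 4 lines together MAPK3 rose by 0.79 on the log2 scale (standard error 0.09, edgeR adjusted p = 4.49e-08). The rise was larger in PC9 than in HCC2935 by 0.63 (edgeR adjusted p = 0.022), the only 1 of 6 pairs of lines that differed. The call in HCC827 was lost without acute replicate 2, the highest library (log2 fold change 0.52, edgeR adjusted p = 0.0922). The difference between the lines (edgeR adjusted p = 0.0432) was near the threshold: leaving out any 1 of 17 of the 24 libraries (6 of PC9, 3 of HCC827, 3 of H1975 and 5 of HCC2935) moved it to between 0.0526 and 0.107.

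In DTPs MAPK3 was called against DMSO in PC9 and in no other line. The PC9 DTP libraries held 72.5, 78.4 and 75.3 CPM, between the acute and the DMSO libraries without touching either, with a log2 fold change against DMSO of 0.58 (standard error 0.08, edgeR adjusted p = 9.47e-05). DTP libraries were at 31.0 to 36.6 CPM in HCC827 and at 37.2 to 44.5 CPM in H1975, overlapping with DMSO in both lines. In HCC2935 they held 66.6, 66.2 and 72.9 CPM and overlapped with DMSO at its lower end, with a log2 fold change of -0.30 that missed the threshold (edgeR adjusted p = 0.0533) and passed it without DMSO replicate 3 (-0.39, edgeR adjusted p = 0.0185). The change in PC9 DTPs exceeded that in H1975 by 0.59 (edgeR adjusted p = 0.026) and that in HCC2935 by 0.85 (edgeR adjusted p = 0.0023), and its difference from HCC827 was 0.49 (edgeR adjusted p = 0.066). Against acute osimertinib, MAPK3 fell in DTPs by 0.52 in PC9, 0.59 in HCC827, 1.00 in H1975 and 0.77 in HCC2935 on the log2 scale (edgeR adjusted p = 0.000357, 0.012, 0.000797 and 0.000129). The levels of DTPs and acute osimertinib overlapped in none of the 4 lines.

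Since MAPK3 moved in the same direction in the 4 lines under acute osimertinib, the sequence before its RefSeq start is shown, with 3 GC boxes (GGGCGG) and an E-box (CACGTG) in capitals. It is the part of the 250 bases before that start that lies in no GENCODE exon, although still within the GENCODE gene, whose outermost transcript starts further upstream. The position is chr16:30123310-30123470 on the minus strand of GRCh38.p14, and the sequence is written 5′ to 3′ on the strand of the gene.
MAPK3: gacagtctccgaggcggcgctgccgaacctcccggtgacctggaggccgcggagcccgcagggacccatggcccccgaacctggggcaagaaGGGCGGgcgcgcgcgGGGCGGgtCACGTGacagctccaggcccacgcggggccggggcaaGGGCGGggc
The 161 bases are 78.3% G and C, against a median of 56.5% for windows of the same place and length before 35116 RefSeq starts. Of those windows 27.8% hold at least 1 GGGCGG on either strand, 4.62% hold as many as MAPK3, and 3.25% hold CACGTG. The 89 bases next to the start were not searched. In the window shown, the AP-1 motif TGACTCA was not found. The same held for the CRE motif, searched as TGACGTCA, for the FOXO motif, searched as TGTTTAC, and for the ETS motif, searched as CCGGAAGT. These letters occur on either strand in 2.43%, 0.538%, 1.90% and 1.04% of the windows, in that order. These matches describe the sequence, and binding of a factor was not measured.

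RASA1, a GTPase-activating protein, was the member with the largest fall, and in DTPs the one whose effect differed most between the lines. Its DMSO libraries in HCC827 held 181, 174 and 173 CPM. They were followed by 113, 97.7 and 111 CPM under acute osimertinib and by 72.0, 71.9 and 73.1 CPM in DTPs. The 3 arms were thus stepwise lower without overlap. In H1975 the libraries held 145, 111 and 124 CPM under DMSO, then 78.5, 80.6 and 96.4 CPM with acute osimertinib, and 66.0, 63.5 and 57.3 CPM in DTPs, again without overlap. In PC9, where RASA1 was lowest under DMSO (67.0, 66.3 and 73.4 CPM), acute libraries held 54.1 to 60.4 CPM and DTPs 57.2 to 61.0 CPM. In HCC2935 the path was another: 87.9, 79.7 and 83.6 CPM under DMSO went to 62.0, 61.9 and 63.8 CPM under acute osimertinib and to 108, 94.2 and 86.2 CPM in DTPs. The DTPs of HCC2935 overlapped with DMSO and lay above all acute libraries. 

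The log2 fold changes of RASA1 under acute osimertinib were -0.29 (standard error 0.08, edgeR adjusted p = 0.00921) in PC9, -0.75 (0.09, 0.000264) in HCC827, -0.64 (0.13, 0.00591) in H1975 and -0.45 (0.09, 0.0021) in HCC2935, and -0.52 in the 4 lines together (0.06, 1.1e-07). The fall was larger in HCC827 than in PC9 by 0.48 (edgeR adjusted p = 0.010), 1 of 6 pairs that differed. The difference over the 4 lines (edgeR adjusted p = 0.0258) was lost without any 1 of 6 libraries (DMSO replicates 1 and 2 and acute replicates 2 and 3 of PC9, and DMSO replicate 1 and acute replicate 2 of HCC827), at up to 0.0739. It was also lost with RLE size factors (edgeR adjusted p = 0.0562), by library size alone (0.0841) and on log2 TPM (limma adjusted p = 0.108). In DTPs the change against DMSO was -1.27 in HCC827 (standard error 0.10, edgeR adjusted p = 8.17e-05) and -1.06 in H1975 (0.13, 0.000383), which left 0.410 and 0.491 of the DMSO mean. In HCC2935 it was 0.18 (0.10, 0.154), and 0.35 on log2 TPM (limma adjusted p = 0.0194). Differences between lines in the DTP effect were called for 5 of 6 pairs, with 1.49 on the log2 scale between HCC2935 and HCC827 (edgeR adjusted p = 1.2e-07) and all but HCC827 and H1975 (0.24, edgeR adjusted p = 0.22).

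In PC9 DTPs the change of RASA1 was -0.26 by TMM counts (standard error 0.07, edgeR adjusted p = 0.01). By library size alone it was -0.10 and not called (edgeR adjusted p = 0.238). The direction turned to 0.01 on the deposited log2 TPM values (limma adjusted p = 0.905). On that scale the median of all genes moved by 0.29 in PC9 DTPs, against 0.02 by TMM counts, with 6745 genes called higher and 3589 lower in place of 5095 and 5158. RASA1 therefore lay below the median gene both by TMM counts and on log2 TPM. Against acute osimertinib, RASA1 fell further in DTPs of HCC827 (-0.56, standard error 0.09, edgeR adjusted p = 0.0037) and H1975 (-0.47, 0.12, 0.021), rose in HCC2935 (0.62, 0.10, 0.000964) and stood at 0.04 in PC9 (0.07, 0.651). The call in H1975 was lost without acute replicate 2 or 3 or DTP replicate 2 or 3 (edgeR adjusted p = 0.0566, 0.0619, 0.0513 and 0.0634). CCNH, a cyclin gene, lies on the strand opposite RASA1, and whether reads were told apart where the genes overlap is not known. In HCC827 CCNH was at 47.0 ± 7.10 CPM under DMSO, 40.6 ± 3.18 under acute osimertinib and 50.6 ± 2.33 in DTPs. In the same order it was at 43.7 ± 4.51, 41.3 ± 6.87 and 43.8 ± 3.01 CPM in H1975. The values were 32.4 ± 3.53, 21.4 ± 2.25 and 22.1 ± 1.24 CPM in PC9, and 14.4 ± 1.31, 12.4 ± 2.02 and 11.5 ± 2.19 CPM in HCC2935.

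**Figure D3:**
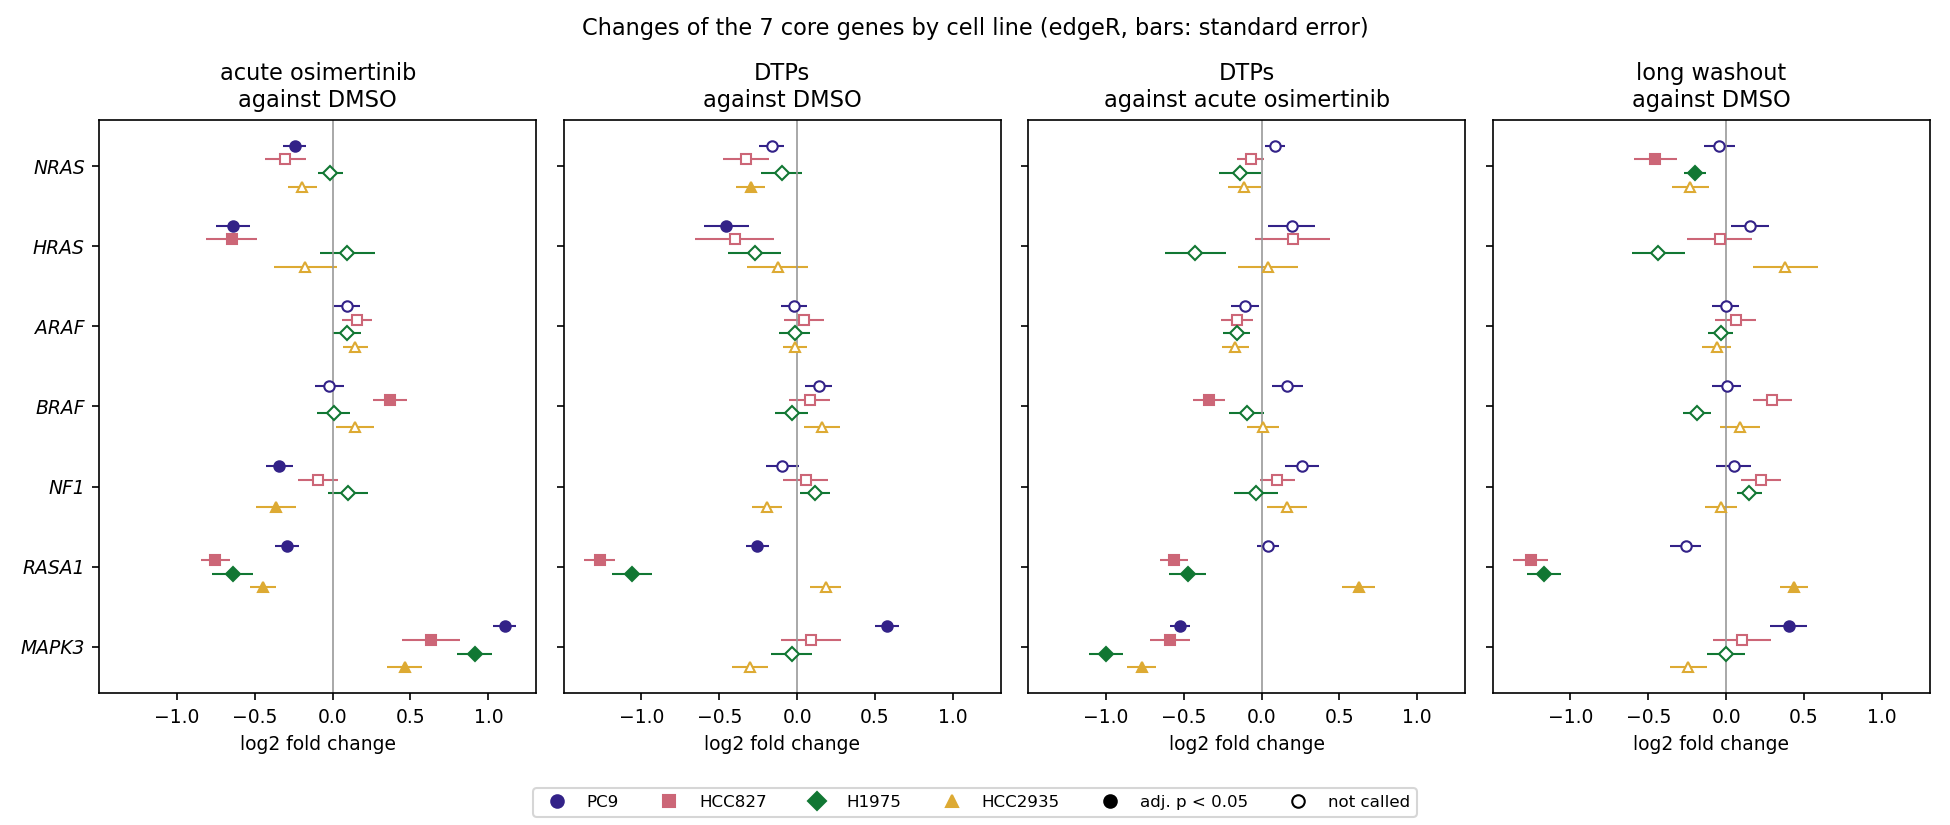
Log2 fold changes of the 7 genes by cell line in 4 comparisons by edgeR. Bars are standard errors taken from the F statistic, and filled symbols have an adjusted p under 0.05. MAPK3 is to the right under acute osimertinib in all lines (0.46 to 1.11), and RASA1 is to the left in DTPs and long washout of HCC827 and H1975 but not of HCC2935.

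NF1, the other GTPase-activating protein, moved less. Under acute osimertinib it fell in PC9 from 98.9, 111 and 115 CPM to 81.8, 96.3 and 85.9 CPM (log2 fold change -0.34, standard error 0.09, edgeR adjusted p = 0.00716). In HCC2935 it fell from 165, 183 and 195 CPM to 119, 145 and 164 CPM (-0.37, 0.13, edgeR adjusted p = 0.0407). Acute and DMSO libraries did not overlap in these lines. In HCC2935 the call was lost without DMSO replicate 2 or 3 or acute replicate 1 or 2 (edgeR adjusted p = 0.0987, 0.125, 0.120 and 0.0889), by library size alone (0.0979) and on log2 TPM (limma adjusted p = 0.0975). In HCC827 and H1975 the log2 fold changes were -0.10 and 0.10. The joint change of -0.17 was not called (standard error 0.08, edgeR adjusted p = 0.0651), and it was called without acute replicate 3 (226 CPM; -0.21, edgeR adjusted p = 0.00969) or DMSO replicate 1 or 3 of H1975 or DMSO replicate 1 of HCC827 (0.0387, 0.0494 and 0.0370). In DTPs NF1 lay between -0.20 and 0.12 against DMSO and was called in no line, at an unadjusted p of 0.0769 or more. EVI2A, which lies within NF1, ranged from 0 to 92.3 CPM over the 60 libraries. In H1975 it was at 15.2 ± 7.00 CPM under DMSO, 66.2 ± 23.3 under acute osimertinib and 30.5 ± 8.90 in DTPs. In HCC827 it was at 7.32 ± 0.859, 5.89 ± 1.64 and 30.9 ± 15.9 CPM in the same order. The DMSO and acute means were 0.0583 and 0.00958 CPM in PC9 and 0.421 and 0.128 CPM in HCC2935. Whether its reads entered the NF1 counts was not tested.

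Of the RAS genes, HRAS fell under acute osimertinib in PC9 and HCC827. Its DMSO libraries held 22.4, 22.5 and 19.9 CPM in PC9 and its acute libraries 12.96, 15.4 and 14.2 CPM, a change of -0.64 on the log2 scale (standard error 0.11, edgeR adjusted p = 0.00067). In HCC827 it went from 18.3, 20.4 and 15.2 CPM to 12.1, 10.6 and 12.4 CPM (-0.65, 0.16, edgeR adjusted p = 0.0107), a call that was lost on all 15 libraries of the line (0.0557). The groups did not overlap in either line. In H1975 (0.10, edgeR adjusted p = 0.683) and HCC2935 (-0.18, edgeR adjusted p = 0.503) they did. The effect in H1975 exceeded that in PC9 by 0.76 (edgeR adjusted p = 0.040), and the difference over the 4 lines (edgeR adjusted p = 0.0382) was lost without any 1 of 15 libraries (6 of PC9, 4 of HCC827, 4 of H1975 and 1 of HCC2935), at 0.0520 to 0.0913. In DTPs HRAS was lower in PC9 (16.9, 18.7 and 12.9 CPM, log2 fold change -0.46, edgeR adjusted p = 0.0171), a call that was lost by library size alone (-0.30, edgeR adjusted p = 0.0898) and on log2 TPM (-0.20, limma adjusted p = 0.169). In the 4 lines together HRAS fell by 0.33 on the log2 scale in both comparisons (standard error 0.11 in each, edgeR adjusted p = 0.0155 for acute osimertinib and 0.0166 for DTPs), the latter -0.22 and not called on log2 TPM (limma adjusted p = 0.0775). In HCC827 DTPs the libraries held 10.3, 11.2 and 18.7 CPM and the change was not called (-0.40, edgeR adjusted p = 0.248), but it was without DTP replicate 3 (-0.72, edgeR adjusted p = 0.0430).

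NRAS changed little beside the difference between the lines. Under acute osimertinib it fell in PC9 to 145, 150 and 144 CPM (log2 fold change -0.24, standard error 0.08, edgeR adjusted p = 0.0175), a call that was lost without DMSO replicate 3, the highest library (-0.18, edgeR adjusted p = 0.0518). In HCC827, where DMSO replicate 2 stood alone at 237 CPM, the change was -0.30 (edgeR adjusted p = 0.0911) and was called on all 15 libraries of the line (0.0463), and in H1975 and HCC2935 it was -0.01 and -0.20. In DTPs of HCC2935, NRAS fell to 52.4, 55.2 and 47.2 CPM, below each DMSO library (-0.30, standard error 0.09, edgeR adjusted p = 0.0253). This call was lost without DMSO replicate 1 or 2 or DTP replicate 1 or 3 (edgeR adjusted p = 0.112, 0.124, 0.0510 and 0.0879). On log2 TPM the value was -0.13 (limma adjusted p = 0.349). In HCC827 DTPs NRAS held 148, 147 and 161 CPM, below each DMSO library (-0.33, edgeR adjusted p = 0.12), and was called on all 15 libraries of the line (edgeR adjusted p = 0.0279). In PC9 DTPs NRAS was at -0.16 (edgeR adjusted p = 0.0812), and it was called without DMSO replicate 1 (-0.21, edgeR adjusted p = 0.0371). The joint changes were -0.18 under acute osimertinib (standard error 0.06, edgeR adjusted p = 0.00877) and -0.24 in DTPs (0.07, 0.00401), the latter -0.11 on log2 TPM (limma adjusted p = 0.185).

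The RAF genes had few calls. Among single lines, BRAF was called in HCC827 only, where it rose from 29.6, 28.2 and 32.6 CPM under DMSO to 41.3, 39.8 and 38.6 CPM under acute osimertinib (log2 fold change 0.37, standard error 0.11, edgeR adjusted p = 0.0242) and fell back to 33.8, 30.9 and 29.9 CPM in DTPs (-0.34 against acute, 0.10, edgeR adjusted p = 0.0381). The acute libraries overlapped with neither group. The rise was lost without DMSO replicate 1 or acute replicate 1, 2 or 3 (edgeR adjusted p = 0.0669, 0.0881, 0.0729 and 0.0567), and the fall without acute replicate 1, 2 or 3 or DTP replicate 2 or 3 (0.129, 0.109, 0.0872, 0.0930 and 0.111) and on log2 TPM (limma adjusted p = 0.105). No pair of lines differed in the effect on BRAF. In the 4 lines together BRAF stood at 0.13 under acute osimertinib (edgeR adjusted p = 0.0581), which DESeq2 called (0.17, adjusted p = 0.0090), as did edgeR without any 1 of 9 libraries (DMSO replicates 1, 2 and 3 and acute replicates 1 and 3 of PC9, DMSO replicate 3 and acute replicate 1 of H1975, and DMSO replicate 3 and acute replicate 2 of HCC2935; 0.0215 to 0.0429), and at 0.07 in DTPs (edgeR adjusted p = 0.281; DESeq2 0.11, adjusted p = 0.0440). In DTPs of HCC2935 it was called without DMSO replicate 3 (0.28, edgeR adjusted p = 0.0430). In PC9 DTPs BRAF was at 0.14 by TMM counts (edgeR adjusted p = 0.184) and 0.40 on log2 TPM (limma adjusted p = 0.00891), beside the shift of the median gene given above.

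ARAF was called in none of the single lines under acute osimertinib, with values between 0.09 and 0.16. In HCC2935 its acute libraries lay above all DMSO libraries, and it was called with library size alone (0.22, edgeR adjusted p = 0.0408). The 4 lines together gave a joint rise of 0.13 (standard error 0.04, edgeR adjusted p = 0.00968). Its highest group was H1975 under acute osimertinib, at 120, 122 and 120 CPM. In DTPs ARAF lay between -0.02 and 0.05 against DMSO, with edgeR adjusted p of 0.813 or more, except that on log2 TPM it was 0.24 in PC9 (limma adjusted p = 0.0186, -0.02 by TMM counts).

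Ratios within a library do not depend on scaling between libraries. ARAF exceeded BRAF in TPM in all 60 libraries, by 2.28 to 8.35 times, with means under DMSO of 2.96 ± 0.211 in PC9, 3.61 ± 0.538 in HCC827, 5.46 ± 0.942 in H1975 and 4.17 ± 0.627 in HCC2935. The TPM ratio of HRAS to NRAS covered a wider range, 0.665 to 9.27. It was 1.24 ± 0.174 in PC9, 0.901 ± 0.132 in HCC827, 2.21 ± 0.301 in H1975 and 4.28 ± 0.820 in HCC2935 under DMSO. Libraries of HCC2935 lay above those of the other lines in every arm. Over 4 such tests, none of the changes passed an exact two-sided permutation test within lines. The log2 ratio of HRAS to NRAS changed by -0.16 under acute osimertinib (exact permutation p = 0.144, 0.396 after Benjamini-Hochberg adjustment), with -0.41 in PC9, -0.36 in HCC827, 0.10 in H1975 and 0.02 in HCC2935, and by -0.11 in DTPs (exact permutation p = 0.412, adjusted 0.549). Without acute replicate 3 of H1975 or acute replicate 2 of HCC2935 the first of these was -0.21, with an unadjusted exact permutation p of 0.0379 and 0.0469. With 1 library left out, the change in DTPs lay between -0.171 and -0.0439. That of ARAF to BRAF changed by -0.003 (exact permutation p = 0.966, adjusted 0.966) and by -0.09 (exact permutation p = 0.198, adjusted 0.396), the latter between -0.122 and -0.0545 with 1 library left out. The smallest p these tests can give is 1.25e-05.

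**Figure D4:**
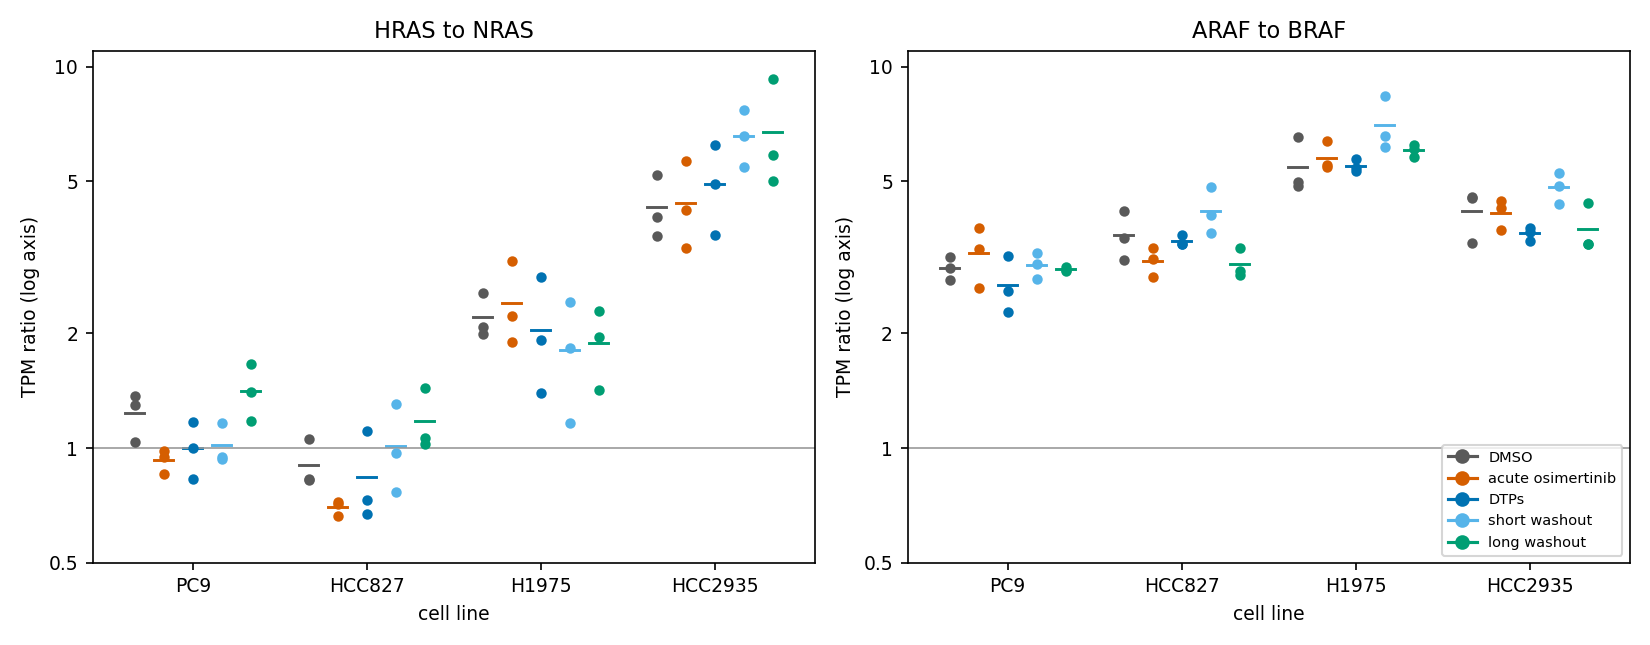
TPM ratios of HRAS to NRAS (left) and ARAF to BRAF (right) in each of the 60 libraries on a log axis, by cell line and arm, with bars at the mean of 3 libraries. The ratio of HRAS to NRAS runs from 0.665 to 9.27 and that of ARAF to BRAF from 2.28 to 8.35. In the former, HCC2935 lies above the other lines in every arm.

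Cells after removal of the drug were compared with DTPs. Outside PC9 few of all genes were called, so few calls among the members were the rule there. The summed level of MKI67, TOP2A and CDK1 went from a mean of 101 TPM in DTPs to 205 TPM after the long washout in PC9 and from 86.1 to 228 TPM in HCC2935, but from 144 to 147 TPM in HCC827 and from 126 to 109 TPM in H1975, beside 239, 329, 401 and 380 TPM under DMSO in the same order. In H1975 this sum was at 229 TPM after the short washout. The summed level of DUSP6, SPRY4, ETV4 and ETV5 went from 17.8 TPM in DTPs to 63.7 TPM after the long washout in PC9. It went from 22.8 to 45.0 TPM in HCC2935, from 27.2 to 43.7 TPM in HCC827 and from 8.64 to 7.88 TPM in H1975. Under DMSO it was 157, 215, 52.5 and 55.6 TPM in the same order. The part of growth and of ERK output in the values below was not tested. A day after removal, MAPK3 in PC9 was the 1 member called against DTPs, at 60.9, 55.3 and 61.1 CPM (log2 fold change -0.35, standard error 0.07, edgeR adjusted p = 0.00668), below all DTP libraries, beside 22.2% of all genes. In HCC827 0 members were called, beside 0% of all 14009 genes (197 at an unadjusted p under 0.05; 1 gene by DESeq2 and 0 by limma). In H1975 it was again 0 members, beside 0% of 14665 genes (1950 at an unadjusted p under 0.05; 401 genes by DESeq2 and 0 by limma). In these lines same-numbered DTP and short washout libraries deviated together, and with the replicate number as a block edgeR called 2 genes in HCC827 and 1697 in H1975, among them no member. In HCC2935 0 members were called beside 3.52%, with HRAS (0.34), ARAF (0.21) and BRAF (-0.20) at an unadjusted p under 0.05. DESeq2 and limma called 0 members in these 3 lines.

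After the long washout no member was called against DTPs in any line by edgeR on the libraries of the compared arms. It was 0 of 7 in PC9, beside 17.3% of all genes. In HCC827 it was 0 beside 0% (434 genes at an unadjusted p under 0.05, 7 called by DESeq2 and 0 by limma). In H1975 it was 0 beside 0.0136%, and in HCC2935 0 beside 5.16%. At an unadjusted p under 0.05 stood HRAS in PC9 and HRAS in HCC2935 (0.46), and 0 members in HCC827 and H1975. HRAS in PC9 stood at 26.4, 24.1 and 21.1 CPM, above all DTP libraries, a change of 0.60 on the log2 scale (standard error 0.17) and an edgeR adjusted p of 0.05002, just above the threshold. DESeq2 called it (0.59, adjusted p = 0.0128). So did edgeR on all 15 libraries of the line (0.58, adjusted p = 0.00528) and with the replicate block (0.61, adjusted p = 0.0430). It was also called by edgeR without long washout replicate 3 (0.68, adjusted p = 0.0116). Without that library MAPK3 in PC9 was called as well (-0.28, edgeR adjusted p = 0.0252). The long washout libraries of PC9 also differed among themselves in ERK output, with DUSP6 from 1.14 to 11.4 CPM, and the number of genes called in that comparison (2496) went to between 0 and 6815 when 1 library was left out.

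Compared with DMSO, RASA1 was called after the long washout in HCC827 and H1975, where it was lower, and in HCC2935, where it was higher. In HCC827 it was at 80.9, 77.4 and 63.9 CPM (log2 fold change -1.25, standard error 0.11, edgeR adjusted p = 5.6e-05) and in H1975 at 54.9, 59.5 and 60.2 CPM (-1.17, 0.11, 7.98e-05), below every DMSO library. In HCC2935 it was at 112, 114 and 106 CPM, above every DMSO library (0.44, standard error 0.09, edgeR adjusted p = 0.00451). In PC9 it stood at -0.26 (edgeR adjusted p = 0.0838). Beside RASA1, NRAS was lower in HCC827 (-0.45, edgeR adjusted p = 0.0278; 2 of 7 members called, beside 39.7% of all genes) and in H1975 (-0.20, edgeR adjusted p = 0.0370; 2 of 7, beside 55%). In HCC2935 RASA1 was the 1 member called, beside 39.9%. In PC9 it was MAPK3, at 62.4, 58.3 and 73.2 CPM (0.40, edgeR adjusted p = 0.0362), beside 30.6%.

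The calls of NRAS and MAPK3 after the long washout depended on single libraries and on the model. NRAS in HCC827 was lost without DMSO replicate 2 (-0.27, edgeR adjusted p = 0.0650) or long washout replicate 1 or 2 (0.104 and 0.0974). NRAS in H1975 was lost without DMSO replicate 1 or 3 or long washout replicate 1, 2 or 3 (0.0614, 0.108, 0.115, 0.140 and 0.0533), and on all 15 libraries of the line (0.200). On log2 TPM NRAS in HCC827 was not called (limma adjusted p = 0.0720). MAPK3 in PC9 was lost without DMSO replicate 1, 2 or 3 or long washout replicate 1 (edgeR adjusted p = 0.129, 0.0755, 0.108 and 0.0778). Some calls were gained when 1 library was left out: HRAS in H1975 without DMSO replicate 2 (-0.51, edgeR adjusted p = 0.0308) or long washout replicate 2 (-0.56, 0.0400), BRAF in H1975 without DMSO replicate 2 (-0.25, 0.0244), MAPK3 in HCC2935 without DMSO replicate 3 (-0.35, 0.0469) and NRAS in HCC2935 without long washout replicate 2 (-0.36, 0.0337). HRAS in H1975 was also called by DESeq2 (adjusted p = 0.0347) and limma (0.0475), BRAF in HCC827 by edgeR with library size alone (0.0433) or on all 15 libraries (0.0175), and RASA1 in PC9 on all 15 libraries (-0.27, edgeR adjusted p = 0.0107). RASA1 kept its call in HCC827, H1975 and HCC2935 under every alternative run.

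Around the 7 core genes, 56 genes in 6 lists of the same pathway were read from the same fits, with values from the 4 lines together. Of these, 35 were called under acute osimertinib (19 higher, 16 lower; 62.5% beside 61.8% of all genes) and 32 in DTPs (17 higher, 15 lower; 57.1% beside 55%). Of all 15970 genes tested under acute osimertinib, 5302 were higher and 4561 lower, and of 16001 in DTPs 4456 and 4342. Whether a single list departed from these shares was not tested. Exchange factors, which load RAS with GTP, and adaptors form 1 list, with 6 higher and 2 lower of 10 in both comparisons. Its median log2 fold change was 0.61 under acute osimertinib (0.08 over all genes) and 0.70 in DTPs (0.05 over all genes). The adaptor GAB2 rose most under acute osimertinib (1.14, standard error 0.20, edgeR adjusted p = 2.71e-05) and the exchange factor RASGRP1 in DTPs (1.59, 0.23, 4.71e-06). PTPN11, the phosphatase SHP2, fell most in both (-0.64 and -0.44, edgeR adjusted p = 8.11e-06 and 0.00161). Among 10 other GTPase-activating proteins and negative regulators, 3 were higher and 2 lower under acute osimertinib and 5 higher and 2 lower in DTPs (medians 0.13 and 0.29). RASA4 was highest (1.51 and 1.46), a gene with close copies that may share its reads, and RIN1 lowest (-1.09 and -1.02).

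Counts below stand beside 5302 higher and 4561 lower of all 15970 genes under acute osimertinib, and 4456 and 4342 of 16001 in DTPs. Of 9 enzymes that modify or move RAS, 2 were higher and 5 lower under acute osimertinib. ICMT, the methyltransferase of the RAS C-terminus, was lowest at -1.06 (standard error 0.07, edgeR adjusted p = 9.65e-12), and the palmitoyltransferase ZDHHC9 highest at 0.27. In DTPs 1 was higher and 4 lower, with ZDHHC9 at 0.37 and the thioesterase LYPLA1 at -0.51 (medians -0.13 and -0.20). Of 8 related GTPases, 2 were higher and 3 lower under acute osimertinib and 2 and 2 in DTPs (medians -0.03 and 0.02). MRAS was highest (1.26 and 2.72, edgeR adjusted p = 0.000161 and 1.52e-05) and RALB lowest (-0.85 and -1.36, edgeR adjusted p = 3.58e-08 and 5.13e-11). Among 11 scaffolds and modulators of RAF and ERK, 2 were higher and 2 lower under acute osimertinib and 3 and 3 in DTPs (medians -0.02 and -0.04): ERBIN rose by 0.40 under acute osimertinib, PEA15, which holds ERK in the cytoplasm, by 0.77 in DTPs, and the chaperone HSP90AB1 fell by 0.81 and 0.68. Of 8 kinases downstream of ERK, 4 were higher and 2 lower under acute osimertinib and 0 and 2 in DTPs (medians 0.16 and 0.05), with MKNK2 highest under acute osimertinib (0.55) and RPS6KA4 lowest in both (-1.07 and -0.98).

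**Figure D5:**
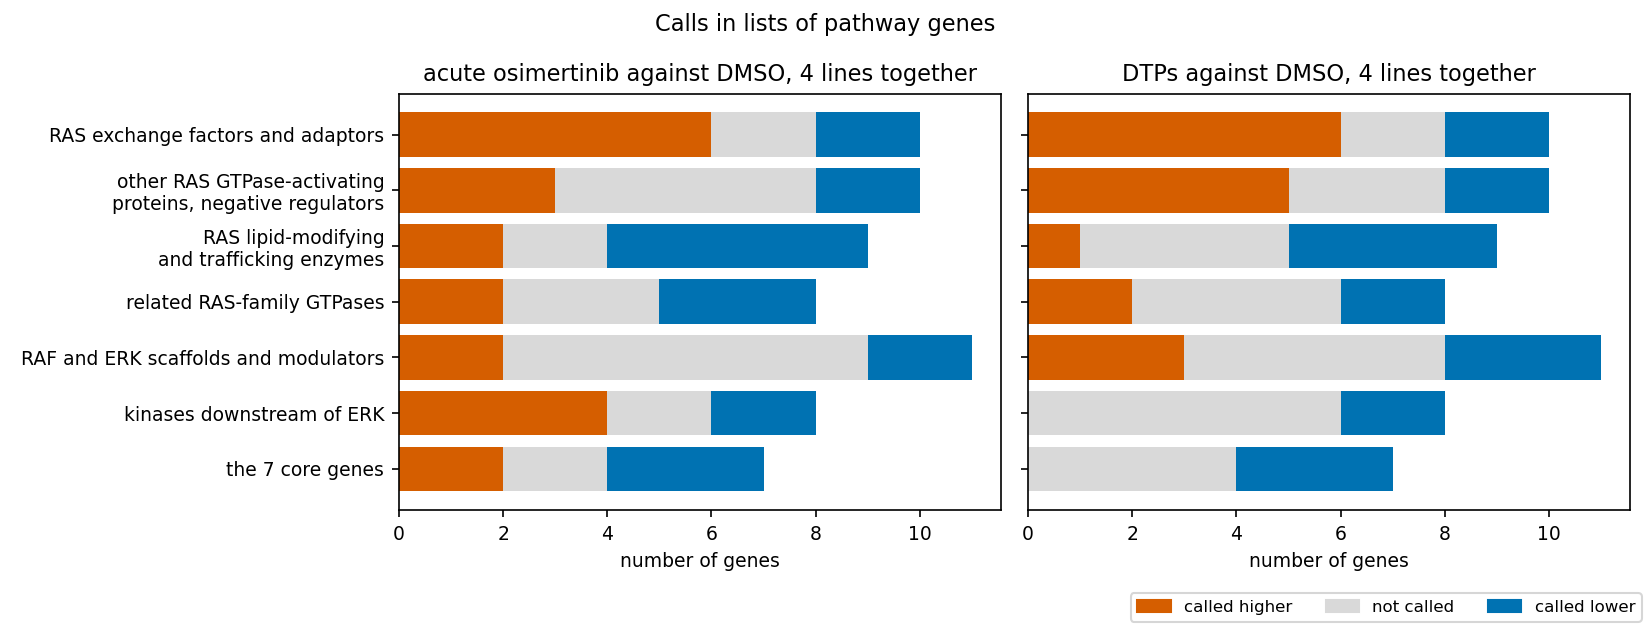
Number of genes called higher, not called and called lower (edgeR adjusted p under 0.05) in 6 lists of pathway genes and in the 7 core genes, for acute osimertinib (left) and DTPs (right) against DMSO in the 4 lines together. Exchange factors and adaptors have 6 of 10 genes higher in both panels. The kinases downstream of ERK have 4 of 8 higher on the left and 0 on the right. Of all genes tested, 5302 of 15970 were higher on the left and 4456 of 16001 on the right.

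The pattern of each member over the 20 groups, with each line centred on its own mean, was compared with 13805 genes of at least 1 CPM on average, as a description over 20 group means that share libraries. MAPK3 was most like CTDSP2, a phosphatase (Pearson r = 0.97), the tight junction gene TJP3 (0.97) and AP003419.1 (0.96). RASA1 was most like C8orf76 (0.92), the actin nucleation gene ARPC2 (0.91) and PAFAH1B1 (0.90). The others followed less closely: NRAS with NXT2, IDI1 and RELCH at 0.86 to 0.88, BRAF with SERPINA3, KIF17 and WASL at 0.79 to 0.83, HRAS with BX470111.1, FAAP24 and CEP85 at 0.79 to 0.80, ARAF with CNPPD1, IGSF3 and TP53I3 at 0.76 to 0.80, and NF1 with HIF1A, TADA2B and NT5C3A at 0.77 to 0.80. Among the members themselves the 21 correlations lay between -0.51 (ARAF and NF1) and 0.55 (BRAF and MAPK3), and that of RASA1 with MAPK3, which moved in opposite directions under acute osimertinib, was -0.14.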

How the data were processed

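The authors deposited estimated counts per gene, not normalized between libraries, and log2 TPM values with a pseudocount of 0.01 for the same 60 libraries. The submitters' processing notes name HISAT2 2.1.0, Salmon 0.8.2 and hg38, and their roles are not given in the sources used here. Sample labels gave groups, dose and times. The 7 members and the gene lists were chosen with earlier results of these data known. After rounding, the counts of the libraries in a comparison went through edgeR 4.0.16 (R 4.3.3; filterByExpr, TMM, quasi-likelihood F-test). Calls were made at a Benjamini-Hochberg adjusted p under 0.05, with the adjustment taken across every gene that passed the filter. In parentheses after a log2 fold change, the standard error comes before the edgeR adjusted p. This standard error was taken as the absolute log2 fold change divided by the square root of F, since the edgeR test returns none. CPM used TMM over 60 libraries. TPM was taken back from the deposited log2 TPM. All 7 members are named. Other genes follow a rule: the highest and lowest called gene of each pathway list in the 2 joint comparisons, the 3 genes most like each member, and the context and marker genes. The fits were tested on simulated data. Alternatives were RLE size factors, library size alone, no filter, DESeq2 1.42.0, limma 3.58.1 on log2 TPM, a replicate block, all 15 libraries of a line, and each library left out. Same-numbered libraries deviated together, with every correlation over 0.1, for DTPs and short washout in HCC827 (0.402 to 0.694) and H1975 (0.249 to 0.599) and for DMSO and acute osimertinib in HCC2935 (0.126 to 0.357), and in no other of 40 pairs of arms. The labels call the replicates biological triplicates. Results of some other pathway genes are not reported here.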

Additional observations from a re-analysis of the deposited data

Results flagged for a closer look

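The effects of the drug on 3 members differed between the 4 lines, by the test of the interaction of line and arm. Under acute osimertinib these were RASA1 (edgeR adjusted p = 0.0258), HRAS (edgeR adjusted p = 0.0382) and MAPK3 (edgeR adjusted p = 0.0432). In DTPs they were RASA1 (edgeR adjusted p = 3.89e-08) and MAPK3 (edgeR adjusted p = 0.00785). The direction of RASA1 in DTPs was lower than DMSO in HCC827 and H1975, and 0.18 in HCC2935, where the long washout was higher than DMSO by 0.44. The 2 results in DTPs held under all 30 alternatives run for each, and the 3 results under acute osimertinib did not. On log2 TPM, limma called 0 of these 3 (adjusted p = 0.108 for RASA1, 0.0504 for HRAS and 0.0751 for MAPK3). Without a filter on low counts, HRAS (edgeR adjusted p = 0.0623) and MAPK3 (0.0575) were lost, and MAPK3 also by library size alone (0.0959). Their causes were not tested.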

How the results depend on the processing

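Of 3150 values of members under alternatives, 2993 kept call and direction, 102 lost a call, 53 gained one and 2 turned direction with a call: in PC9 DTPs against DMSO on log2 TPM, ARAF was at 0.24 (limma adjusted p = 0.0186) and RASA1 at 0.0113 (limma adjusted p = 0.905). Of 450 counts of called genes, 393 stayed within 1.5 times. The causes of the others were not tested.

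By DESeq2, short washout against DTPs gave 401 genes in H1975, 1160 in HCC2935 and 1 in HCC827, and long washout against DTPs 69 in H1975, 1698 in HCC2935, 7 in HCC827 and 4168 in PC9. With the replicate block, short washout gave 1697 in H1975, 244 in HCC2935, 2 in HCC827 and 2023 in PC9, and long washout against DTPs 38 in HCC2935. On all 15 libraries of a line, short washout gave 9 in H1975 and 880 in PC9, long washout against DTPs 1 in H1975, 1758 in HCC2935 and 5532 in PC9, and long washout against DMSO 6672 in PC9. By limma, long washout against DTPs gave 0 in H1975.

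With 1 library left out, DTPs against acute osimertinib ranged from 1775 to 4610 genes in H1975 and 2328 to 5237 in HCC827. Short washout against DTPs ranged from 0 to 276 in H1975, 76 to 674 in HCC2935 and 1785 to 2649 in PC9. Long washout against DTPs ranged from 0 to 1 in H1975, 17 to 1837 in HCC2935, 0 to 3 in HCC827 and 0 to 6815 in PC9, and long washout against DMSO from 1364 to 5316 in PC9. The HRAS to NRAS log2 ratio under acute osimertinib ranged from -0.209 to -0.115, with an unadjusted exact permutation p of 0.0379 without acute replicate 3 of H1975 and 0.0469 without acute replicate 2 of HCC2935.

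The replicate block changed member calls where numbers do not pair libraries: lost were BRAF and MAPK3 under acute osimertinib in HCC827 (edgeR adjusted p = 0.0658 and 0.0556), BRAF in DTPs against acute osimertinib in HCC827 (0.0579), NRAS after long washout against DMSO in HCC827 and H1975 (0.0508 and 0.0706), MAPK3 after long washout against DMSO in PC9 (0.0658) and, in the fit of the 4 lines, the acute line differences of RASA1 and MAPK3 (0.0612 and 0.142). HRAS after long washout against DTPs in PC9 was gained (0.0430). In the pairs of arms whose numbers do pair, it changed no member call. Scaling by library size moved the median of all genes in PC9 DTPs against DMSO to 0.18, with 6040 genes higher and 4241 lower.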
